A study of Homo sapiens with 10 samples.

Results

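CPS1 and 8 further genes of the urea cycle and its supply of nitrogen were followed through 10 RNA sequencing libraries of A549, an established human lung adenocarcinoma line. The 9 genes (CPS1, NAGS, OTC, ASS1, ASL, ARG2, SLC25A15, SLC25A13 and GLUD1) were taken by name from the 33551 rows of the count table, and each had a row. CPS1 was chosen by its measured counts, which had been seen to differ between these same libraries, above all in the E292V line against wild type. Its differences between lines are therefore given as a description, without a test. The other 8 were chosen for their place in the pathway.

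A549 came in 5 genotypes of ABCA3, the gene for a phospholipid pump of surfactant-storing organelles: wild type (WT), knockout by its label (KO), and the variants L101P, E292V and E690K. Of each line, 1 library was untreated and 1 was made after an overnight transduction with VSVG LV-ABCA3:GFP, a lentivirus that carries ABCA3 and GFP (MOI 20). There was 1 library per line and treatment and 1 line per genotype, so a difference between lines cannot be told apart from one between genotypes, and no label says how the lines were derived or whether they are single clones. The p-values below judge line and vector differences against the spread left between these libraries, which may be technical.

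The urea cycle turns toxic ammonia into urea, in full only in liver, where its first steps run in the mitochondrion. CPS1 joins ammonia and bicarbonate to carbamoyl phosphate once NAGS has made its activator, N-acetylglutamate; OTC passes the carbamoyl group to ornithine, and ASS1, ASL and an arginase complete the round in the cytosol. In lung adenocarcinoma CPS1 is known for its expression in tumours with a mutated STK11 gene, which encodes the kinase LKB1, and A549 carries such a mutation. Carbamoyl phosphate also feeds pyrimidine synthesis, a role that the enzyme CAD has in most cells.

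Total counts lay between 59430095 and 96811421 per library. The library labelled KO and untreated had ABCA3 at 600 CPM (counts scaled to library size, here with the trimmed mean of M-values) and that labelled KO and transduced had 26.0, while the row for EGFP stood at 37.9 and 0.0497 CPM, so both went against the labels of this pair. In the 8 other libraries ABCA3 was between 356 and 1151 CPM. EGFP was at 1.00 to 69.7 CPM in the 4 other untreated libraries and at 18.5 to 151 CPM in their transduced partners. It was higher with the vector in each of these 4 lines, but in E690K it rose only from 16.53 to 18.5 CPM. Untreated WT, at 69.7 CPM, exceeded transduced L101P, E292V and E690K. The EGFP level thus did not separate the treatments across lines, and its source in the untreated libraries was not tested. Epithelial markers were present in every library (EPCAM 7.62 to 22.4 CPM, KRT8 3673 to 7945 CPM). The 7 hepatocyte markers summed to 0.0535 to 0.753 CPM, with APOB and F9 at 0 counts, and the 7 alveolar type 2 markers, SFTPC among them, to 0.973 to 1.92 CPM. In neither list did a gene reach a mean of 1 CPM, while the labels call the cells alveolar basal epithelial. The endothelial list summed to 0.0971 to 1.12 CPM and the leukocyte list to 1.22 to 6.48 CPM, mostly CD14, with CD3E at 0.

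The members divided into those with many and those with few CpG dinucleotides at their starts, and the sequences of 5 such windows are shown because CPS1 and OTC stood on one side of that division. Each window runs from 250 bases before to 50 bases after a start annotated by RefSeq (GRCh38.p14), 5′ to 3′ along the strand of the gene, with every CpG in capitals. CPS1 has 3 annotated windows and the count of the gene does not separate them.
CPS1, window 1 (chr2:210477435-210477734, plus strand): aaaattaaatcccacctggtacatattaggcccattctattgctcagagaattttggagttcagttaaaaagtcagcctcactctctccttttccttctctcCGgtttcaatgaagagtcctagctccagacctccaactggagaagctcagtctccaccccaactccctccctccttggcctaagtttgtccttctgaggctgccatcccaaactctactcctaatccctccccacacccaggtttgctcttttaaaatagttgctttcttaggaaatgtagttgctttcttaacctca
CPS1, window 2 (chr2:210519468-210519767, plus strand): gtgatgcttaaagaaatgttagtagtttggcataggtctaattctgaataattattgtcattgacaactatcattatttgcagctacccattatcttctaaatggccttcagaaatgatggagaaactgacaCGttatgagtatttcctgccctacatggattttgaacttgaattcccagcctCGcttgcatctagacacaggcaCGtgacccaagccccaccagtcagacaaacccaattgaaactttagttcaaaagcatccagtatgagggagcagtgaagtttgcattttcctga
CPS1, window 3 (chr2:210593105-210593404, plus strand): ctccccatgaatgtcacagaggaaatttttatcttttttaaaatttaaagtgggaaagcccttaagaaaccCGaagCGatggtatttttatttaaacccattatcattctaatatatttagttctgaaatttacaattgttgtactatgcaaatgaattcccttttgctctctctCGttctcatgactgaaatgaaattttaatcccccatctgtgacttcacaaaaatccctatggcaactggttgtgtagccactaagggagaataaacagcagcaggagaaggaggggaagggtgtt
OTC (chrX:38352354-38352653, plus strand): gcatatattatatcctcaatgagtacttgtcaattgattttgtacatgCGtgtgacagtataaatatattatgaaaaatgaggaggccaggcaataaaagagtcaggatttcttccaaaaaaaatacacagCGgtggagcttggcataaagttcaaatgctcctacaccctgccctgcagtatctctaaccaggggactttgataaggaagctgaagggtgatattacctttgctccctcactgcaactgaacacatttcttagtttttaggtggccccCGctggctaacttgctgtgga
GLUD1 (chr10:87094794-87095093, minus strand): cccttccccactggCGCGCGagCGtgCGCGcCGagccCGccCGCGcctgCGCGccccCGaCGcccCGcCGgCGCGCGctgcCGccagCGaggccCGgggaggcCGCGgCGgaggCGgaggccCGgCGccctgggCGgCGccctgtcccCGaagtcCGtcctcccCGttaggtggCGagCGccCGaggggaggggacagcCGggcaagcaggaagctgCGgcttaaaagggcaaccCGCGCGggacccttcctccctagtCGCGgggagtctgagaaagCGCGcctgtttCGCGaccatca

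The CPS1 windows held 1, 3 and 3 CpG and the OTC window 3. GLUD1 held 47, SLC25A15 45, ARG2 31, ASL 30, ASS1 29 in each of its 2 overlapping windows, SLC25A13 27 and NAGS 15. Over the 35116 promoter windows of the RefSeq table the median was 14, 24.5% had 3 CpG or fewer and 98.0% had 47 or fewer. GC content told the same groups apart, with 45.3%, 40.3% and 36.7% in the CPS1 windows (in the order shown) and 41.7% in OTC against 64.3% to 80.0% in the others. The GC box GGGCGG was found in the windows of 7 of the 9 members and in 45.0% of all windows; those of CPS1 and OTC lacked these letters. The ARG2 window was the only one of a member with the cyclic AMP response element TGACGTCA, at 2 places, which 1.85% of all windows hold at least once. TGTTTAC (the core bound by FOXA factors) and TTGCNNAA (by C/EBP factors) were in none of the members' windows and in 3.42% and 10.5% of all windows. The E-box CACGTG was in windows of 3 members, CPS1, ASS1 and SLC25A13, and in 7.26% of all. A member was counted where any of its windows held the motif (12 windows for 9 members), whereas the percentages are of single windows. CCAAT was in windows of 4 members, CPS1 among them, and in 34.6% of all windows. The TATA box TATAAA was in that of OTC alone and in 11.5% of all. The ATF4 composite site TGATGNAA was in none of the members' windows and in 3.62% of all. All were searched on both strands, none of these motifs contains another, and they were chosen after the counts had been seen.

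**Figure D1:**
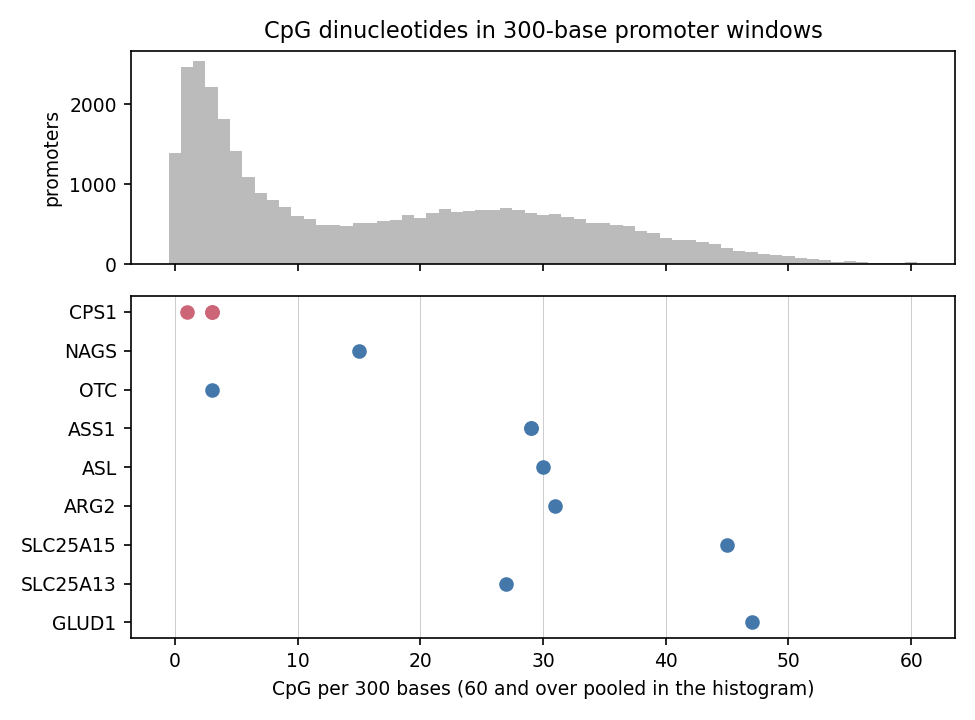
Number of CpG dinucleotides per 300-base promoter window, for the 35116 windows of the RefSeq table (upper panel, number of windows) and for the windows of the 9 members (lower panel, 1 point per window, CPS1 in red). CPS1 and OTC lie at 1 to 3 CpG and the other members at 15 to 47.

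CPS1 (ENSG00000021826.15) spans chromosome 2 from 210477682 to 210679107 on the plus strand (GRCh38, GENCODE release 29). WT had 2205 counts untreated and 2288 with the vector, KO 5170 and 5570, L101P 4200 and 3546, E292V 849 and 542, and E690K 910 and 731. As levels, untreated WT had 25.9 CPM (95% Wilson interval on read pairs 24.5 to 27.5) and transduced WT 27.8 CPM (26.2 to 29.4). The 2 libraries labelled KO had 68.9 and 69.2 CPM, so exchanging their labels would leave this gene nearly as it is. L101P had 70.4 CPM untreated (67.4 to 73.4) and 37.7 CPM with the vector (35.98 to 39.5). E292V had 10.5 CPM untreated (9.51 to 11.5) and 5.64 CPM with the vector (5.01 to 6.35), and E690K 12.2 (11.1 to 13.3) and 9.61 (8.68 to 10.7). The lines thus stood at 3 heights: KO and L101P above WT, E292V and E690K below it. No library of the upper pair of lines fell below 37.7 CPM and none of the lower pair exceeded 12.2 CPM.

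**Figure D2:**
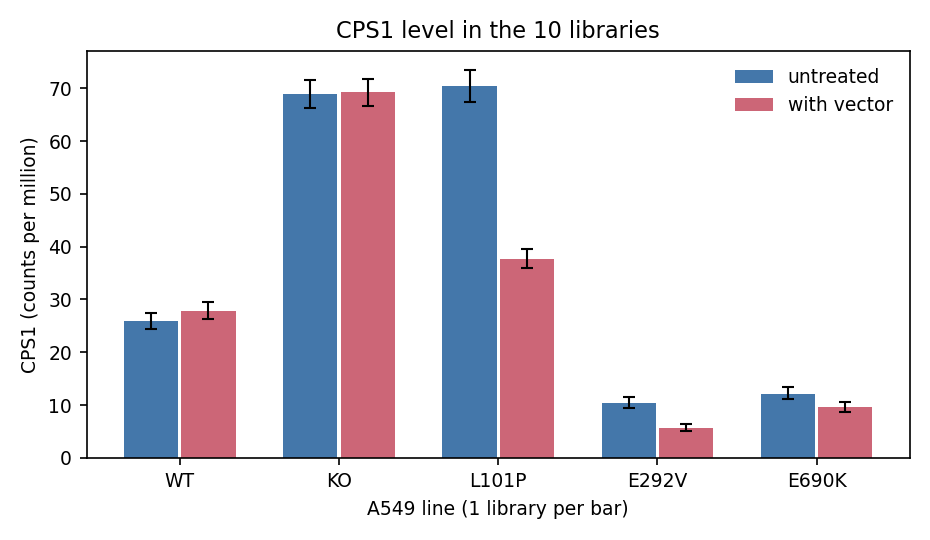
CPS1 in CPM (vertical axis, from 0) in each of the 5 lines, untreated (blue) and with the vector (red), 1 library per bar, with 95% Wilson intervals that cover counting error only. The KO bars stand at 68.9 and 69.2 and the E292V bars at 10.5 and 5.64.

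From the lowest library, transduced E292V, to the highest, untreated L101P, the level of CPS1 differed 12.5-fold. The geometric means of the 2 libraries of a line were 69.1 CPM in KO, 51.5 in L101P, 26.9 in WT, 10.8 in E690K and 7.69 in E292V. KO was thus 8.98 times E292V and 2.57 times WT, L101P 1.92 times WT, and WT 2.48 times E690K and 3.49 times E292V. Of these neighbours in the order, KO and L101P were not separated beyond the spread of their libraries, since untreated L101P exceeded both KO libraries, and the E690K and E292V libraries overlapped as well (9.61 against 10.5 CPM). WT overlapped neither neighbour. Averaged over both treatments in the additive fit, KO exceeded WT by 1.36 on the log2 scale (SE 0.21) and L101P by 0.94 (SE 0.21). The differences from WT were -1.80 (SE 0.22) for E292V and -1.33 (SE 0.22) for E690K. Since CPS1 was chosen by such differences, these SEs describe the fit and give no test.

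The untreated and the transduced pair gave the same direction in every line, but not the same size. KO was 2.66 times WT untreated and 2.49 times with the vector. For L101P the ratio went from 2.71 to 1.36. WT exceeded E292V 2.48-fold untreated and 4.92-fold with the vector, and E690K 2.13-fold and 2.89-fold. For the 9459 genes averaging 10 CPM or more, the median standard deviation of log2 CPM over the libraries was 0.119, and that of CPS1, at 1.33, was among the 15 largest. As CPS1 was chosen for such differences, this places it and tests nothing. Of the lists of markers of other cell types, the leukocyte list followed these levels and the fibroblast list was highest in E292V alone. The leukocyte list summed to 5.12 and 4.67 CPM in KO and 4.29 and 6.48 in L101P. It summed to 3.88 and 2.76 in WT, 2.73 and 2.29 in E292V and 2.19 and 1.22 in E690K. Its sums were ordered in the same 3 tiers as CPS1, but transduced WT (2.76) and untreated E292V (2.73) were nearly equal. Of its 5 genes 1 averaged 1 CPM or more, CD14 (1.16 to 5.46 CPM), PTPRC was at most 0.134 CPM and CD3E at 0. The fibroblast list summed to 75.7 and 119 CPM in the E292V pair and to 16.4 to 46.9 CPM in the 8 other libraries. COL1A1 carried nearly all of it (14.2 to 116 CPM over the libraries, DCN at most 0.191 CPM), 2 of its 6 genes had a mean of at least 1 CPM, and the part of either list in the CPS1 level was not tested. In E690K, where CPS1 was also low, the fibroblast list stood at 25.1 and 35.6 CPM.

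The neighbourhood of CPS1 on chromosome 2 was compared with it. LANCL1, a glutathione-binding protein gene, runs in the opposite direction and begins 30 bases from the first annotated base of CPS1, within window 1 above. It differed from WT on the log2 scale by 0.10 (KO), 0.17 (L101P), 0.005 (E292V) and -0.12 (E690K) (edgeR line difference, adjusted p 0.127), against 1.36 to -1.80 for CPS1. Over the 26 other genes within 5 Mb on either side that averaged 1 CPM or more the median log2 differences were 0.05, 0.02, 0.06 and -0.02 in the same order of lines. Genes of the same stretch of chromosome were thus centred near 0 in the 4 contrasts. Of the 3 nearest such genes on each side of CPS1, 1 of 6 passed the line difference, which 13.0% of all genes did. This was ABCA12 (edgeR adjusted p 0.0155), 4252435 bases away, which was above WT in the 4 lines by 1.01 to 1.42 on the log2 scale.

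NAGS, the source of the activator of CPS1, was scarce, with 83 to 178 counts per library. Its level was 1.28 CPM in untreated WT and 1.505 in transduced WT. In this order of treatments, kept for each pair below, KO had 2.37 and 1.19, L101P 1.39 and 1.57, E292V 1.90 and 1.57, and E690K 1.38 and 1.63 CPM. The KO pair held both the highest and the lowest value, and the lines overlapped. OTC, the next enzyme of the cycle, had 0 counts in the 10 libraries, where 3 counts would correspond to 0.0312 to 0.0503 CPM. It lies on chromosome X from 38352545 to 38421450, and of the 13 genes within 5 Mb on either side that averaged 1 CPM or more 12 were below WT in E292V (median log2 difference -0.42, medians -0.003 to 0.022 in the 3 other lines). With OTC undetected at this depth, the libraries held no measured transcript for the step from carbamoyl phosphate to citrulline.

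ASS1, which joins citrulline and aspartate, had 5.04 to 9.68 CPM. Its levels were 7.13 and 5.88 CPM (WT), 6.88 and 5.04 (KO), 5.39 and 7.97 (L101P), 9.68 and 8.66 (E292V), and 5.67 and 7.10 (E690K). The E292V libraries, where CPS1 was lowest, had the 2 highest ASS1 levels (log2 difference from WT 0.50, SE 0.22, edgeR adjusted p 0.455), and those of the other lines overlapped. A line difference in ASS1 did not pass over all 5 lines (edgeR adjusted p 0.274) but did without the L101P pair (0.0339). Leaving out that pair raised the calls over all genes from 2337 to 3730. Without the E292V pair the edgeR adjusted p of ASS1 was 0.966. The annotation holds 11 ASS1 pseudogenes and the table none, so reads shared with them make its level uncertain.

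ASL, which splits argininosuccinate into arginine and fumarate, stood at 12.7 to 19.2 CPM, lowest in untreated KO and highest in transduced L101P. ARG2, the mitochondrial arginase, had only 16 to 81 counts (0.214 to 0.861 CPM), and it overlaps VTI1B on the opposite strand, a gene with 3247 to 5688 counts. As strand use in counting is not given in the sources used here, ARG2 counts cannot be told apart from VTI1B reads in the overlap. ARG1, the cytosolic arginase that serves the cycle in liver, had 0 to 4 counts.

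The remaining members supply the cycle. SLC25A15, which brings ornithine into the mitochondrion, had 12.1 to 17.1 CPM, and its relative SLC25A2 had 0 to 4 counts. SLC25A13 (citrin), which exports the aspartate that ASS1 consumes, had 64.8 to 86.3 CPM, with transduced L101P lowest, beside 20.8 to 28.9 CPM for its paralog SLC25A12. GLUD1, which can release ammonia from glutamate in the mitochondrion, had 134 to 160 CPM. Its near-identical retrocopy GLUD2 had 2.47 to 4.40 CPM, and reads shared between them make both uncertain. The annotation also holds 5 pseudogenes each of GLUD1 and SLC25A15 and 1 of ASL, none with a row. GLUD1 overlaps SHLD2 on the opposite strand, which has no row either.

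Of the 9 members, 8 passed the filter on low counts and 7 averaged 1 CPM or more, OTC and ARG2 being the exceptions. Per kilobase of annotated exon, mean levels were 41.3 CPM for GLUD1, 21.5 for SLC25A13, 7.69 for SLC25A15, 4.78 for ASL, 3.14 for CPS1, 2.28 for ASS1, 0.560 for NAGS and 0.203 for ARG2. This length joins the exons of all annotated transcripts and is 10775 bases for CPS1, which lowers its value per length wherever a shorter transcript prevails. GLUD1, SLC25A13 and SLC25A15 kept the first 3 places in the 10 libraries. CPS1 took place 4 of 9 in both KO libraries and untreated L101P, place 5 in the WT libraries and transduced L101P, place 6 in untreated E292V and in both E690K libraries, and place 7, below NAGS, in transduced E292V. Set against ASL per length, the ratio of CPS1 ran from 0.114 in transduced E292V to 1.61 in untreated KO.

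**Figure D3:**
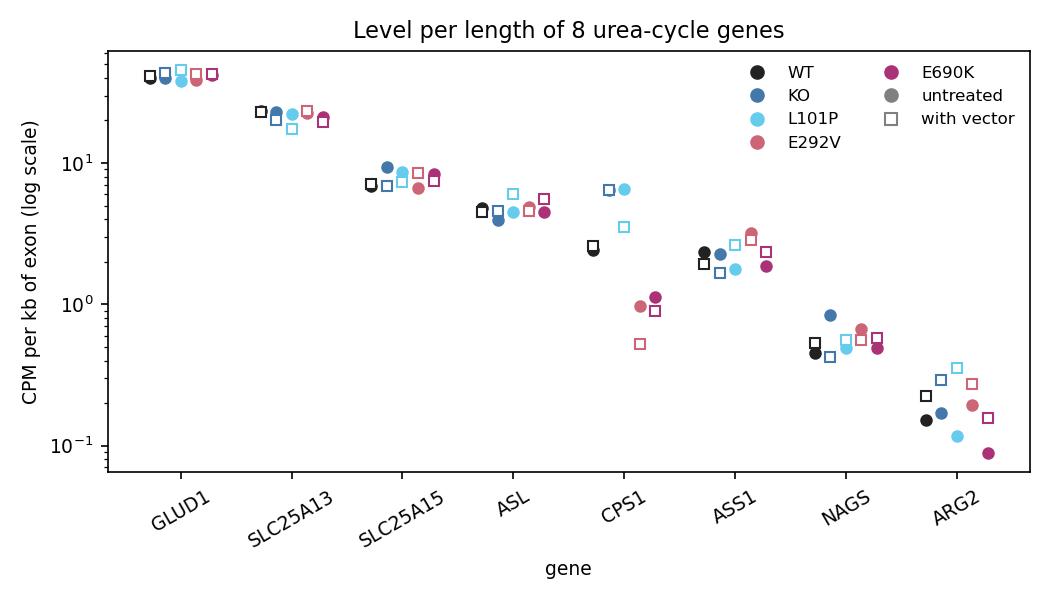
Level of 8 members in CPM per kilobase of annotated exon (vertical log axis), 1 point per library, coloured by line, filled circles untreated and open squares with the vector; OTC had 0 counts and is not drawn. GLUD1 lies between 37.98 and 45.5 in the 10 libraries and CPS1 between 0.524 and 6.53.

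Whether the other members differed between the 5 lines was put to the quasi-likelihood F test of edgeR, with the vector as a covariate and p-values adjusted over 17978 genes. Of the 7 members besides CPS1 that could be tested, 0 passed an adjusted p of 0.05 (0.274 to 0.975), and 0 had an unadjusted p under 0.05. Over all genes 13.0% passed. In the single contrasts with WT, 0 of these 7 were called in KO, L101P, E292V and E690K, where 1.80%, 3.94%, 1.05% and 5.38% of all genes were. By direction, 0.807% of all genes were higher and 0.990% lower in KO, 2.33% and 1.61% in L101P, 0.295% and 0.756% in E292V, and 3.05% and 2.33% in E690K. Their log2 differences ran from -0.64 (ARG2 in E690K, SE 0.55) to 0.50 (ASS1 in E292V), and their medians were 0.04, 0.09, 0.12 and 0.05 beside -0.01, -0.01, -0.0006 and -0.02 over all genes. The precision varied with the count: for KO against WT the SE was 0.08 for GLUD1, 0.34 for NAGS and 0.53 for ARG2. ASS1 in E292V (0.0419) and SLC25A13 in L101P (-0.22, SE 0.09, 0.0324) had an unadjusted p under 0.05 in edgeR. Their adjusted p were 0.455 and 0.221. Of all 17978 genes, 1857 in E292V and 3292 in L101P had an unadjusted p under 0.05. GLUD1 differed least, with log2 differences of 0.01 to 0.05 (SE 0.08).

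**Figure D4:**
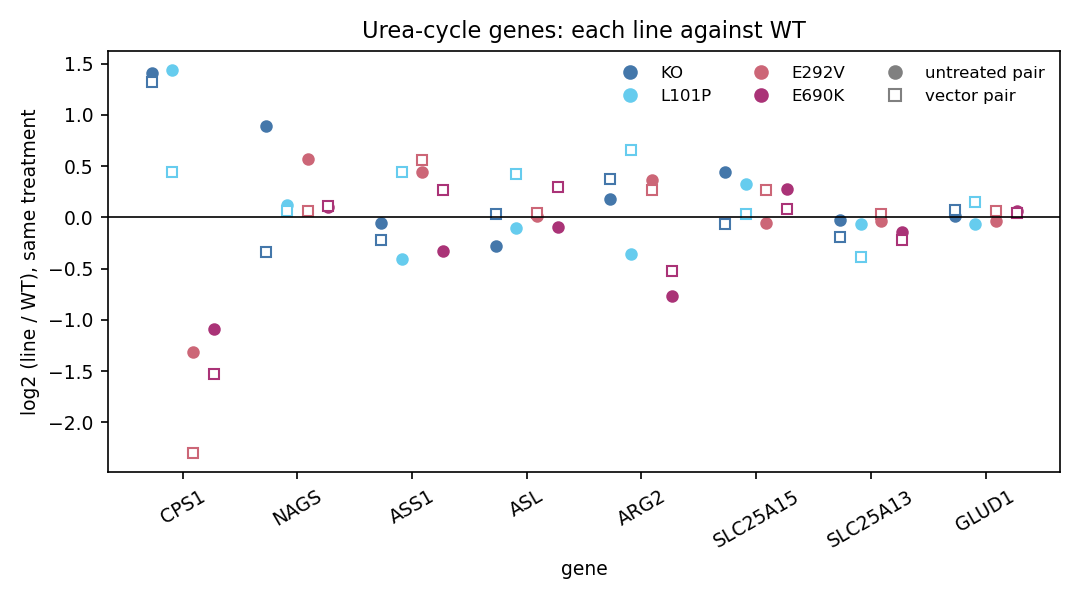
Log2 ratio of each line to WT within the same treatment (vertical axis) for the 8 members with counts, coloured by line, filled circles for the untreated and open squares for the transduced pair of libraries. CPS1 spreads from -2.30 to 1.44, with KO and L101P above and E292V and E690K below the line of 0.

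To ask whether the vector changed these genes, the untreated and transduced libraries were compared within lines, with the 5 lines as replicates. The treatment was taken from the labels, although every library labelled untreated also had EGFP counts. CPS1 was lower with the vector in 3 of 5 lines: the ratio of transduced to untreated was 0.536 in L101P, 0.539 in E292V and 0.789 in E690K, against 1.00 in KO and 1.07 in WT. The intervals of the untreated and transduced library, which cover counting error only, did not overlap in L101P, E292V and E690K. Over the lines the log2 change was -0.39 (SE 0.13) with an unadjusted p of 0.0121 and an edgeR adjusted p of 0.533, and the lines varied by as much (SD 0.48, n = 5). It passed once every gene with counts was kept (edgeR, adjusted p 0.00301) and in none of the 10 other settings. In these 17978 genes 0 were called, which is 0% of them, with 1236 at an unadjusted p under 0.05 and 118 called by DESeq2.

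Among the other members, ARG2 and GLUD1 were higher with the vector in 5 of 5 lines. ARG2 had 0.365 and 0.546 CPM in the WT pair, 0.413 and 0.708 in that of KO, 0.285 and 0.861 in that of L101P, 0.469 and 0.656 in that of E292V and 0.214 and 0.381 in that of E690K. The log2 change was 0.84 (SE 0.34, edgeR adjusted p 0.629), at counts of 16 to 38 before and 29 to 81 after, so it did not pass. For GLUD1 the change was 0.12 (SE 0.05, edgeR adjusted p 0.663). With the labels of the KO pair exchanged either gene would be higher in 4 of 5 lines. NAGS, ASS1, ASL, SLC25A15 and SLC25A13 moved in both directions among the lines, with edgeR adjusted p from 0.724 to 0.998.

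**Figure D5:**
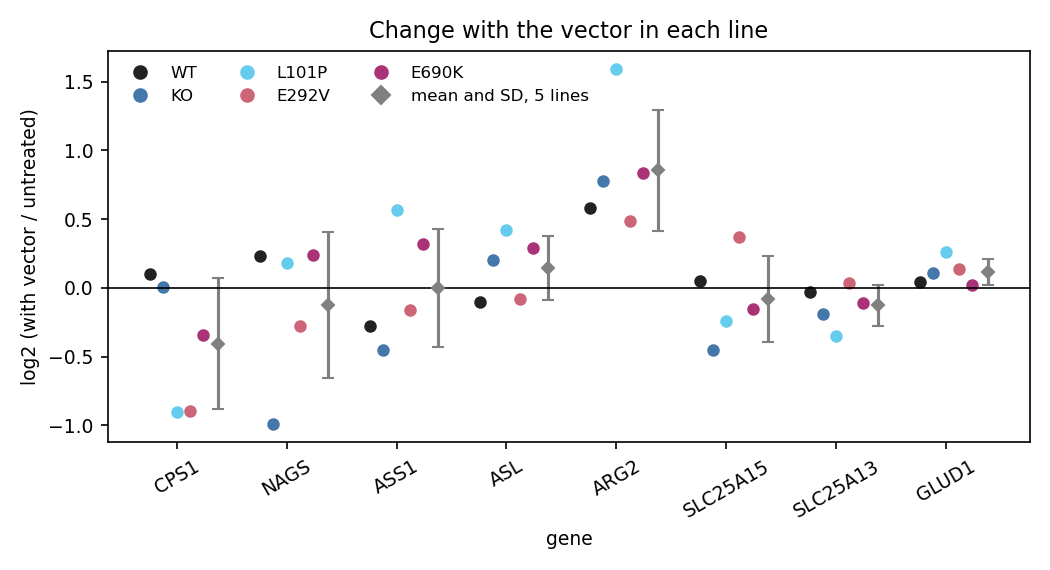
Log2 ratio of the transduced to the untreated library (vertical axis) in each of the 5 lines for the 8 members with counts, with the mean and standard deviation over the lines in grey. The 5 ARG2 points lie between 0.48 and 1.596 and the CPS1 points between -0.90 and 0.10.

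Wider nitrogen metabolism, the LKB1 pathway, liver transcription factors and mitochondrial deacylases were examined through 7 lists with 68 genes, of which 65 were tested. In the line difference 18 of these passed, or 27.7%, beside 13.0% of all genes, and 0 passed for the vector. As the lists were chosen with earlier results of these data known, these shares describe and test nothing. Of the 18, 7 were among the 10 liver transcription factors. In the list of further urea cycle and arginine genes 1 of 5 tested passed. This was NOS1, a nitric oxide synthase that uses arginine, with 1.88 and 1.70 CPM (WT), 4.11 and 4.27 (KO), 2.31 and 3.59 (L101P), 1.01 and 0.520 (E292V), and 2.98 and 2.997 (E690K) (edgeR line difference, adjusted p 0.00245). KO was highest and E292V lowest, as for CPS1, but E690K stood above WT.

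Of the 11 tested genes that handle ammonia, glutamine and glutamate, 3 passed the line difference, beside 13.0% of all genes. ASNS, which makes asparagine from aspartate and glutamine, was at 50.7 and 58.3 CPM (WT), 36.9 and 30.9 (KO), 32.2 and 28.99 (L101P), 69.6 and 79.2 (E292V) and 37.6 and 35.8 (E690K). It was lower than WT in KO (log2 difference -0.69), L101P (-0.83) and E690K (-0.57), at adjusted p of 0.0105, 0.00250 and 0.0126 by edgeR. In E292V it was 0.45 (SE 0.11, edgeR adjusted p 0.0972). GLUL, glutamine synthetase, which binds free ammonia, had 48.9 and 40.4 CPM in E292V against 58.3 to 71.0 CPM in the 8 other libraries (line difference, edgeR adjusted p 0.0153). SLC7A11, the cystine-glutamate exchanger, was the third (edgeR adjusted p 0.0432), without a call in a single contrast.

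Of 13 genes for ornithine, proline and polyamines, 4 passed the line difference, beside 13.0% of all genes. SAT1, which acetylates polyamines for export, was lower than WT in the 4 lines by log2 differences of -0.51 (KO), -0.50 (L101P), -0.63 (E292V) and -0.49 (E690K) (edgeR adjusted p 0.00726 to 0.0135). ODC1, which draws ornithine into polyamines, was higher in E690K (0.53, SE 0.09, edgeR adjusted p 0.00349), with 260 and 263 CPM against 192 and 169.6 in WT. AZIN1, an activator of ODC1, was also higher in E690K (0.31, edgeR adjusted p 0.0446). SMS, spermine synthase, was lower in E292V (-0.41, SE 0.08, edgeR adjusted p 0.0239), and PYCR1, of proline synthesis, was the fourth gene in the line difference (edgeR adjusted p 0.00525). AZIN1 and PYCR1 were named after their values had been seen.

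Pyrimidine synthesis had 2 of 9 genes past the line difference, beside 13.0% of all genes. RRM2, a subunit of ribonucleotide reductase, was higher than WT in KO (0.42), L101P (0.65) and E690K (0.70), with edgeR adjusted p from 8.4e-04 to 0.0364. CTPS2, a CTP synthase, was lower in E292V (-0.51, SE 0.10, edgeR adjusted p 0.0374). CAD, which makes its own carbamoyl phosphate in the cytosol, had 167 to 219.5 CPM and no call (line difference, edgeR adjusted p 0.267). SMS, CTPS2 and SAT1 all lie on the short arm of chromosome X, where each of the 28, 35 and 23 genes within 5 Mb that averaged 1 CPM or more was below WT in E292V (median log2 differences -0.50, -0.45 and -0.48). These windows overlap, and the part of the neighbourhood in the 3 E292V differences was not tested. In KO, L101P and E690K the same medians were -0.03 to 0.06.

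STK11 had 64.1 to 75.4 CPM and did not differ between lines (edgeR adjusted p 0.911), a level that says nothing of the protein. Of the 14 genes of the LKB1 pathway 1 passed the line difference, beside 13.0% of all genes. This was CAB39, a scaffold of the LKB1 complex, which was higher in E690K (0.36, SE 0.08, edgeR adjusted p 0.0229). The 3 mitochondrial deacylases, SIRT5 among them, which is known to act on CPS1 protein, had 0 calls.

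Of the 10 liver transcription factors with known roles at urea cycle genes, 7 passed the line difference, beside 13.0% of all genes. This list was chosen with earlier results of these data known, and all genes were not matched to it in level. The comparison of shares is therefore a description and no test. Against WT, 1 was called in the KO line, 2 in L101P, 1 in E690K and 0 in E292V. Of all genes 1.80%, 3.94%, 5.38% and 1.05% were called in these contrasts. HNF4A, a nuclear receptor of hepatocyte genes, had 88.2 and 128 CPM in E292V and 62.7 and 66.4 in E690K, the 2 lines with least CPS1, and 71.8 to 88.7 CPM in the 6 libraries of WT, KO and L101P (edgeR adjusted p 0.00425). NR3C1, the glucocorticoid receptor, was higher than WT in KO (0.34), L101P (0.36) and E690K (0.32), with edgeR adjusted p from 0.0182 to 0.0389. FOXA3 had 12.6 and 8.77 CPM in E292V, 14.3 and 12.7 in E690K, 20.0 and 15.9 in WT, 20.4 and 21.8 in KO and 18.3 and 25.7 in L101P (edgeR adjusted p 0.00892). In FOXA3 the 4 libraries of E292V and E690K lay below the 6 others, as in CPS1. The single contrasts of FOXA3 with WT did not pass (edgeR adjusted p 0.0972 to 0.651). FOXA1, named after its values had been seen, was divided likewise. It had 49.8 and 35.8 CPM in E292V and 44.3 and 38.1 in E690K, against 52.2 to 76.8 in the 6 others (edgeR line difference, adjusted p 0.0174). Its single contrasts did not pass either.

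The genes most like CPS1 in pattern were sought among 977 others that averaged 10 CPM or more and had a standard deviation of log2 CPM of 0.25 or more, by Pearson's r of log2 CPM over the 10 libraries, which share 5 lines in pairs. They were SLC40A1 (ferroportin, the iron exporter; r = 0.958), CA12 (a membrane carbonic anhydrase; 0.949), ABCG2 (a drug and urate exporter; 0.938), HNF4G (a nuclear receptor; 0.932) and SLC12A2 (a sodium-potassium-chloride cotransporter; 0.931). SLC40A1 had 20.4 and 21.5 CPM (WT), 26.9 and 25.6 (KO), 25.6 and 28.3 (L101P), 13.6 and 12.04 (E292V), and 14.5 and 13.3 (E690K). Its 4 libraries of E292V and E690K also lay below WT and those of KO and L101P above, over a narrower range, with log2 differences from WT of 0.33, 0.37, -0.71 and -0.59. With Spearman's rho in its place 1 of the 5, ABCG2 (0.939), stayed among the first 5. No other member met both limits, the means of ASS1, NAGS and ARG2 being under 10 CPM and the standard deviations of the others under 0.25. Over the libraries the r of the 7 tested members with CPS1 ran from -0.60 for ASS1 to 0.09 for SLC25A15.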

How the data were processed

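Cells were detached, and libraries were made from their total RNA, per the labels' protocols. The authors deposited unscaled counts, 1 whole number per gene and library. The submitters' processing notes name featureCounts, Subread, edgeR and limma and the build GRCh38; annotation, strand use and the handling of shared reads are not given in the sources used here. Of the values from 1 to 10, 81.4% were even, against 51.5% above 1000, so intervals were taken on read pairs (count divided by 2; 95% Wilson). No label mentions molecular identifiers; intervals and the floor of 3 counts cover counting error only. Columns were assigned by the sample descriptions, and 0 columns were left unused.

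Positions and exon lengths come from GENCODE release 29, which matched 98.5% of the rows; promoter windows come from RefSeq (GRCh38.p14). Counts were fitted with edgeR 4.0.16 (R 4.3.3): filterByExpr kept 17978 genes, libraries were scaled by TMM, and line and vector entered 1 additive design over the 10 libraries (4 residual degrees of freedom). Quasi-likelihood tests gave Benjamini-Hochberg adjusted p over all genes kept, with a threshold of 0.05. Standard errors are the log2 change divided by the square root of F. The line is the replicate block of the vector effect, since both libraries come from the same cell line; deviations of paired libraries correlated by 0.18 to 0.437 over genes. Other settings were DESeq2 1.42.0, its size factors, other filters, other terms, the KO labels exchanged and each line left out. The fit was tested on simulated data.

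The members, gene lists and tests were chosen with earlier results of these data known. The 9 members were always reported, with 4 paralogs. From each list the genes past the line difference were named, at most 3 by smallest p, plus ODC1, CAD, STK11 and GLUL. The 5 genes most like CPS1 were taken by Pearson's r on log2 CPM with a prior count of 2.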

Additional observations from a re-analysis of the deposited data

How the results depend on the processing

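CPS1 kept its direction against WT in each of the 4 lines and in each of 9 other settings: 1.36 to 1.37 in KO, 0.93 to 1.00 in L101P, -1.81 to -1.74 in E292V and -1.33 to -1.30 in E690K. Leaving out a line gave 1.365 to 1.368, 0.93 to 0.97, -1.81 to -1.77 and -1.33 to -1.31. As CPS1 was chosen by these same counts, the ranges show how far the settings moved its differences and test nothing. The vector effect of CPS1 ran from -0.53 to -0.25, the latter without the L101P pair, and without the replicate block it was -0.33. No setting called another member in a contrast with WT or for the vector; the line difference of ASS1 passed without the L101P pair (edgeR adjusted p 0.0339).

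Counts of called genes over the whole table moved. Without a filter they were 3661 (line difference), 982 (KO), 1437 (L101P), 662 (E292V), 1659 (E690K) and 237 (vector), against 2337, 323, 709, 189, 967 and 0. DESeq2 gave 740, 1227, 429 and 1463 for the 4 lines and 118 for the vector. With the KO labels exchanged the 4 lines had 142, 367, 105 and 599, and KO without a vector term 165. Leaving out a line gave 931 to 3730, 147 to 1124, 367 to 732, 57 to 689, 639 to 1993 and 0 to 133 in the first order. The highest came without L101P, or for L101P itself without E292V; the lowest came without E292V (line difference), KO (E690K) or E690K (KO, L101P and E292V). For the vector, 3 were called without E690K and 0 without WT, KO or E292V. Without the replicate block 0 genes were called for the vector. The cause was not tested.

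Signs near 0 turned without a call. SLC25A13 in E292V (-0.0014) was 0.0000 under DESeq2 and its size factors, 0.0017 with at least 10 counts in every library, and 0.0026 to 0.0033 without a line. With the KO labels exchanged the vector effects of NAGS, ASS1 and SLC25A15 were 0.27, 0.17 and 0.10; leaving out a line gave -0.2167 to 0.0932, -0.1398 to 0.1086 and -0.2008 to 0.0112, the highest of each without the KO pair. ASS1 was 0.06 and 0.04 without the WT and E292V pairs. Depth limits OTC (0 counts), ARG2 (16 to 81) and NAGS (83 to 178).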
